A study of Homo sapiens with 18 samples.

Results

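The AP-1 family transcription factors were read in NCI-H211 cells in which POU2F3 was targeted with a guide RNA. Members were taken by name: the FOS family (FOS, FOSB, FOSL1, FOSL2), the JUN family (JUN, JUNB, JUND) and ATF3. They were 8 of the 19752 genes kept from the deposited expression table. NCI-H211 is a small cell lung cancer cell line that expresses POU2F3 and resembles tuft cells, and all cells carried Cas9. A stable line held an empty vector, a wild-type POU2F3 cDNA that the guide does not cut (WT), or that cDNA with the substitution L191A. Lentivirus brought in either sgPOU2F3, which targets POU2F3, or sgRosa, the control guide, in 3 infections per line and guide, and RNA was taken on day 5. That gave 6 groups of 3 poly(A) RNA libraries. Each line existed once, so p-values measured the spread between infections and not between independently made lines. In the limma fits this spread was pooled over all groups fitted, not taken from the compared groups alone. All 6 groups shared Cas9 and the parent line, and the sgRosa groups also kept their own uncut POU2F3.

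AP-1 is a dimer of basic leucine zipper proteins that binds the sequence TGACTCA, the TPA response element (TRE). JUN proteins pair with each other or with FOS proteins, whereas FOS proteins need a JUN partner, so the mix of members sets which dimers can form. ATF3 is a stress-induced member of the ATF group that also pairs with JUN proteins. FOS, JUN, JUNB and EGR1 are immediate early genes that respond to growth factor and stress kinases. FOSL1 and FOSL2 are later and longer-lived members, and FOSL1 is well known in invasive and mesenchymal epithelial tumour cells. POU2F3 is the octamer-binding factor that specifies tuft cells, chemosensory cells of the epithelium.

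Promoter sequence from RefSeq (GRCh38.p14, 250 bases before to 50 after each start site) was matched for 7 of the 8 members, all but FOSL1, with 2 start sites for ATF3. Both strands were searched for the TRE, for the CRE (TGACGTCA, bound by ATF and JUN dimers), for a TRE variant (TGACATCA), for the octamer (ATGCAAAT), for a TEAD site (GGAATG) and for the CArG box bound by SRF. No pair of matches overlapped. JUND is shown first, because its level did not follow that of the others and its upstream 250 bases held both a CRE and an octamer, 200 and 100 bases before the start site. The window is at chr19:18281623-18281872, minus strand, upstream of the GENCODE gene model, with the CRE and then the octamer in capitals.

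JUND: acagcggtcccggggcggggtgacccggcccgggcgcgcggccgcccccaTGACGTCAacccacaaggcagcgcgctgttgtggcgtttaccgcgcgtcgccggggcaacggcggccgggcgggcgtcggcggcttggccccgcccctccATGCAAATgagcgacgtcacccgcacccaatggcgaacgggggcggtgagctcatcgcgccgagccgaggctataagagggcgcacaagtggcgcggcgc

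An AP-1-type element in the same window marked 3 other members, shown in short with the element in capitals. FOSL2 held a TRE 5 bases after its RefSeq start (chr2:28392852-28392878, plus strand, inside the GENCODE gene model). JUN held the variant 67 bases before its start (chr1:58784097-58784124, minus strand, also inside the GENCODE gene model). ATF3 held the variant 123 bases before one of its starts (chr1:212565274-212565301, plus strand, upstream of the gene model).

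FOSL2: gccattgtagTGACTCAtctcgggcag
JUN: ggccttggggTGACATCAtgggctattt
ATF3: acctatgataTGACATCAtatggccact

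Of 35116 windows of the same length, 4.95% held the TRE, 1.85% the CRE, 2.61% the variant, 1.77% the octamer, 14.0% the TEAD site and 1.29% the CArG box. The variant was added to the search after the promoters had been seen. Neither the TEAD site nor the CArG box was found in the windows of these 7 members. None of the 6 elements was found in those of FOS, FOSB and JUNB. Sequence outside the windows was not searched, so elements further upstream would be missed. A match of letters is a description and does not show that a factor binds.

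The deposited values were TPM, a transcript level corrected for transcript length with the same total in every library, so read depth was unknown. L191A sgRosa replicate 1 and WT sgPOU2F3 replicate 1 stood apart: their median tested gene was at 7.06 and 12.7 TPM, against 18.6 to 26.4 TPM in the other 16 libraries. Changes are therefore given as fitted to all 18 libraries and, where a call or size differed, to the 16 without these. Because the spread is pooled over groups, adjusted p-values in empty-vector cells also differ between these fits, although no empty-vector library was left out. Every log2 change is a difference of log2(TPM + 1), which understates the change of genes near 0 TPM, and every adjusted p is from limma across the 13073 genes whose mean reached 1 TPM, with 0.05 as the threshold. FOSB, at a mean of 0.258 TPM, was the member not tested. POU2F3 itself was at 681.7, 653.7 and 853 TPM in empty-vector sgRosa libraries and at 252.6, 317.6 and 274.2 TPM with sgPOU2F3 (log2 change −1.37, SE 0.48, limma adjusted p = 0.0617 in 18 libraries and 1.95e-07 in 16). In the cDNA lines reads of the cDNA are counted too. WT cells held POU2F3 at 1700.6, 1880.5 and 1795.9 TPM with sgRosa and at 1135.9, 1275.8 and 1048.9 TPM with sgPOU2F3. L191A cells held it at 142, 1053.2 and 831 TPM with sgRosa and at 620.9, 672.2 and 645.2 TPM with sgPOU2F3. Under each guide every L191A library lay below every WT library. The part of this in the contrasts of L191A with WT was not tested. Of 10 tuft markers, 6 fell in the empty-vector cells in 18 libraries (9.5% of all genes tested) and 10 in 16 (32.7%). POU2F3, the targeted gene, is among the 10 markers and was called only in the 16 libraries.

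With sgPOU2F3 in empty-vector cells, AP-1 mRNA rose and changed its mix. FOSL1 went from a mean of 0.722 to 102.0 TPM, FOSL2, JUN and JUNB rose to 10.3, 3.91 and 3.86 times their mean TPM in sgRosa libraries, and FOS to 2.6 times. Of the 7 members tested, 5 rose and 0 fell, while 7.94% of all genes tested were called higher and 9.5% lower. In the 16 libraries ATF3 was also called, making 6 of 7 higher against 19.1% of all genes, with 32.7% lower. Bulk libraries cannot tell more cells of a kind from more RNA per cell. The median log2 change was 1.88 over the members and −0.13 over all genes tested. JUND did not pass in either fit (0.29, limma adjusted p = 0.649 and 0.151), but passed once the 16 libraries were also scaled by median ratios (0.43, adjusted p = 0.00547).

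**Figure D1:**
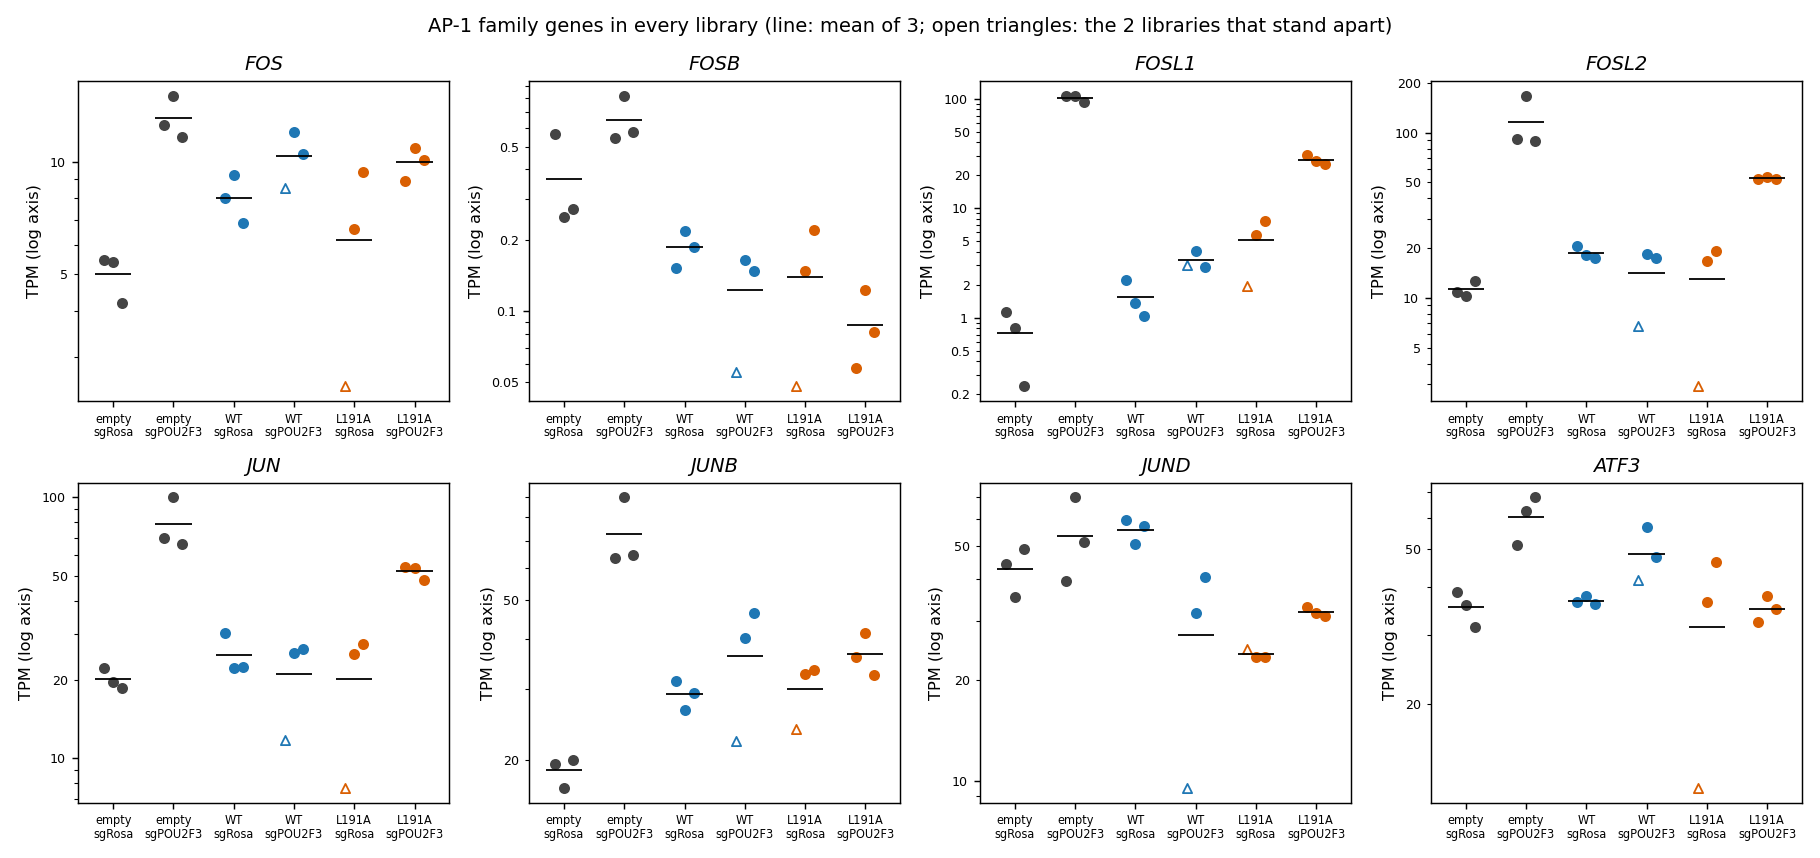
TPM (log axis, a scale of its own for each gene) of the 8 AP-1 genes in each of 18 libraries, 3 per group, with a line at the mean. Open triangles mark L191A sgRosa replicate 1 and WT sgPOU2F3 replicate 1. FOSL1 lies at 94.2 to 106.8 TPM in empty-vector sgPOU2F3 libraries and at 25.4 to 30.6 TPM in L191A sgPOU2F3 libraries, above every other group.

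In WT cells the guide called 0 of the 7 members in 18 libraries, where 1.56% of all genes were called higher and 5.26% lower, and 2 of the 7 had an unadjusted limma p under 0.05. Over the 16 libraries FOSL1, JUNB and ATF3 were called higher and JUND lower, against 5.69% and 30.4% of all genes. In L191A cells FOSL1, FOSL2 and JUN rose, 3 of 7 members, and 0 fell, against 5.42% and 0.566% of all genes. The same 3 were called in the 16 libraries, where 7.35% of all genes were called higher and 3.33% lower, but a fit of the L191A groups alone called 0 of 7 (FOSL1 limma adjusted p = 0.0767). In WT cells the median log2 change was 0.25 over the members and −0.42 over all genes tested. In L191A cells these medians were 0.75 and 0.33, and they were 0.43 and 0.01 in the 16 libraries.

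**Figure D2:**
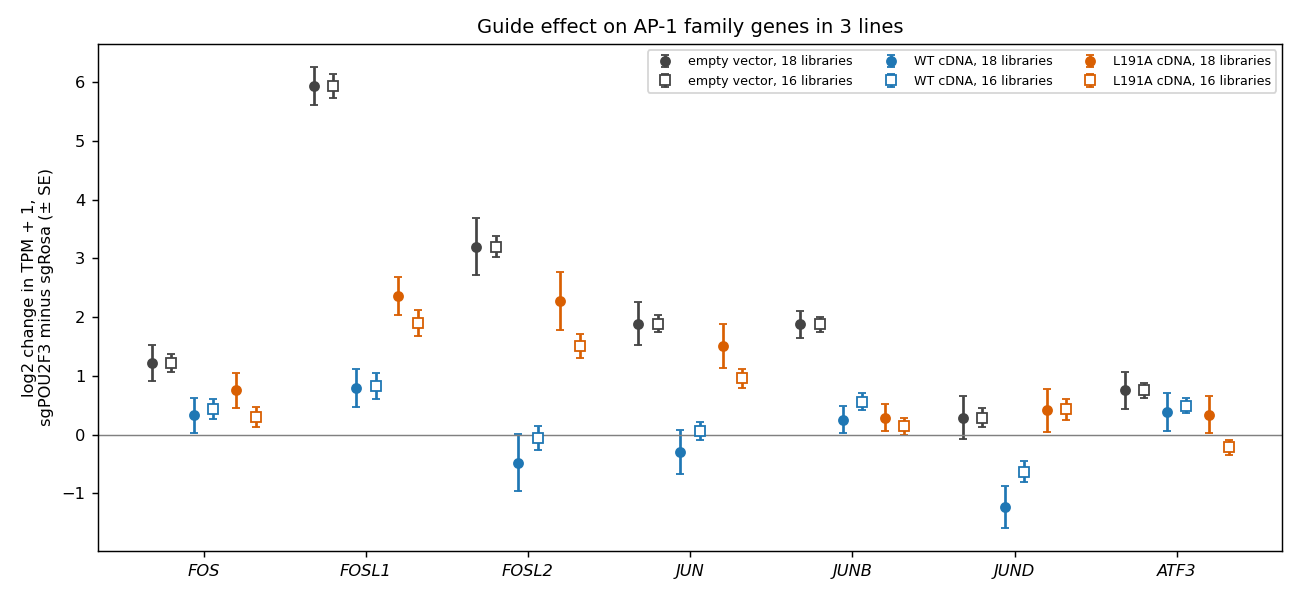
Log2 change of TPM + 1 (sgPOU2F3 minus sgRosa, y axis, with SE) for the 7 members tested, in the empty-vector, WT and L191A lines, fitted to 18 libraries (filled) or 16 (open). FOSL1 reads 5.94 with the empty vector, 0.79 with WT and 2.36 with L191A in 18 libraries, while JUNB reads 1.88, 0.25 and 0.29.

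FOSL1 encodes FRA-1 (chromosome 11, 65892049 to 65900573, minus strand, protein-coding, GRCh38). In empty-vector cells it was at 1.13, 0.801 and 0.236 TPM with sgRosa and at 104.9, 106.8 and 94.2 TPM with sgPOU2F3. In WT cells it was at 2.22, 1.37 and 1.04 TPM with sgRosa and at 3.04, 4.06 and 2.91 TPM with sgPOU2F3. In L191A cells it was at 1.93, 5.66 and 7.68 TPM with sgRosa and at 30.6, 26.7 and 25.4 TPM with sgPOU2F3. The guide groups did not overlap in WT and empty-vector cells or in L191A cells, while the levels reached differed widely, and 2 of the 3 L191A sgRosa libraries lay above all WT libraries of both guides. In empty-vector cells the log2 change was 5.94 (SE 0.32, limma adjusted p = 2.36e-09), with means of 102.0 ± 6.79 and 0.722 ± 0.451 TPM (SD, n = 3), a ratio of 141.3. It was 0.79 in WT cells (SE 0.32, limma adjusted p = 0.0969, and 0.83 with adjusted p = 0.0167 in 16 libraries) and 2.36 in L191A cells (SE 0.32, limma adjusted p = 0.000157, and 1.90 in 16 libraries).

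The FOSL1 response differed between the lines. It was smaller than in empty-vector cells, with a difference of −5.15 log2 units in WT (limma adjusted p = 3.29e-06) and −3.58 in L191A (limma adjusted p = 0.000345). It was larger in L191A than in WT by 1.57 (SE 0.45, limma adjusted p = 0.0412). That last call was lost on leaving out any 1 of 7 of the 12 libraries, with adjusted p from 0.0574 to 0.114 (all 3 WT sgRosa, all 3 L191A sgPOU2F3 and WT sgPOU2F3 replicate 1). With both outlying libraries removed it was 1.07 (adjusted p = 0.0367), and 0.87 (adjusted p = 0.0592) with those 16 scaled by median ratios. Under sgPOU2F3, L191A cells held 2.72 log2 units more FOSL1 mRNA than WT cells (limma adjusted p = 2.66e-05) and less than empty-vector cells (−1.85, limma adjusted p = 0.002). Ordered over the 16 libraries, its groups ran from empty-vector sgPOU2F3 through L191A sgPOU2F3, L191A sgRosa, WT sgPOU2F3 and WT sgRosa to empty-vector sgRosa, and only the last 2 overlapped.

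FOSL2 encodes FRA-2, the other long-lived FOS protein (chromosome 2, 28392448 to 28417312, plus strand). In empty-vector cells it was at 10.8, 10.2 and 12.7 TPM with sgRosa and at 91.2, 167.7 and 88.6 TPM with sgPOU2F3. WT cells held it at 20.5, 18.1 and 17.4 TPM with sgRosa and at 6.73, 18.4 and 17.4 TPM with sgPOU2F3. L191A cells held it at 2.91, 16.6 and 19.3 TPM with sgRosa and at 52.5, 54.2 and 52.5 TPM with sgPOU2F3. WT libraries of both guides shared 1 range apart from the outlying replicate, and empty-vector and L191A cells separated by guide. The log2 change was 3.20 in empty-vector cells (SE 0.49, limma adjusted p = 0.000256), −0.48 in WT cells (limma adjusted p = 0.446) and 2.27 in L191A cells (SE 0.49, limma adjusted p = 0.00887). Without the outlying libraries the WT value was −0.06 (0.20 with median-ratio scaling) and the L191A value 1.51 (limma adjusted p = 5.73e-05).

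The FOSL2 response was smaller in WT than in empty-vector cells (difference −3.68 log2 units, limma adjusted p = 0.00361). For L191A against empty vector the difference was −0.93 in 18 libraries (SE 0.69, limma adjusted p = 0.347) and −1.68 in 16 (SE 0.27, adjusted p = 0.000513), and without L191A sgRosa replicate 1 alone it also passed (adjusted p = 0.0204). The response was larger in L191A than in WT by 2.76 (SE 0.69, limma adjusted p = 0.0256). Leaving out any 1 of 6 of the 12 libraries lost that call, with adjusted p from 0.0517 to 0.0742 (WT sgRosa replicates 1 and 2, all 3 L191A sgPOU2F3 and WT sgPOU2F3 replicate 1), and in 16 libraries the difference was 1.57 (adjusted p = 0.0019). Under sgPOU2F3, FOSL2 was higher in L191A than in WT by 1.95 (limma adjusted p = 0.0142). Without WT sgPOU2F3 replicate 1 alone that difference was 1.52 (limma adjusted p = 0.0631).

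FOS, the founding member (chromosome 14, 75278774 to 75282230, plus strand), stayed at or under 15.0 TPM. In empty-vector cells it was at 5.46, 5.40 and 4.18 TPM with sgRosa and at 12.5, 15.0 and 11.6 TPM with sgPOU2F3. In WT cells it was at 7.97, 9.19 and 6.85 TPM with sgRosa and at 8.51, 12.0 and 10.5 TPM with sgPOU2F3. In L191A cells it was at 2.51, 6.60 and 9.38 TPM with sgRosa and at 8.88, 10.9 and 10.1 TPM with sgPOU2F3. Only in empty-vector cells did the guides not overlap. The log2 change was 1.22 there (SE 0.30, limma adjusted p = 0.00924), and 1.12 with adjusted p = 0.0503 without empty-vector sgRosa replicate 3. It was 0.33 in WT (limma adjusted p = 0.398) and 0.75 in L191A cells (limma adjusted p = 0.171). Without L191A sgRosa replicate 3 the L191A change passed (1.08, limma adjusted p = 0.0232), and without both outlying libraries it was 0.30 (adjusted p = 0.352).

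FOSB (chromosome 19, 45467995 to 45475179, plus strand), a close relative of FOS, was under 1 TPM in all 18 libraries. It read 0.566, 0.251 and 0.273 TPM in empty-vector sgRosa and 0.545, 0.823 and 0.579 TPM in empty-vector sgPOU2F3 libraries. All other libraries lay between 0.0481 and 0.221 TPM. Every library of the cDNA lines lay below every empty-vector library. Exact two-sided permutation tests of 3 against 3 cannot go below p = 0.1, the value each cDNA group gave against the empty-vector group of the same guide, and the value was 0.164 after adjustment over the 36 relations tested this way.

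JUN (chromosome 1, 58780788 to 58784327, minus strand) encodes c-Jun, a strong activator among JUN proteins. In empty-vector cells it was at 22.2, 19.6 and 18.5 TPM with sgRosa and at 69.6, 99.9 and 66.2 TPM with sgPOU2F3. WT cells held it at 30.2, 22.1 and 22.4 TPM with sgRosa and at 11.7, 25.2 and 26.1 TPM with sgPOU2F3. L191A cells held it at 7.68, 25.0 and 27.4 TPM with sgRosa and at 54.2, 53.4 and 48.2 TPM with sgPOU2F3. As for FOSL2, the guide separated the empty-vector and L191A libraries and not the WT ones. The log2 change was 1.89 in empty-vector cells (SE 0.37, limma adjusted p = 0.00225), −0.30 in WT cells (limma adjusted p = 0.541) and 1.51 in L191A cells (SE 0.37, limma adjusted p = 0.0229). The L191A call was lost without any 1 of the 3 L191A sgPOU2F3 libraries (adjusted p from 0.0633 to 0.0889), and the change was 0.96 (limma adjusted p = 0.000577) without both outlying libraries. The WT value turned to 0.06 in the 16 libraries.

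The JUN response was smaller in WT than in empty-vector cells (difference −2.19 log2 units, limma adjusted p = 0.0187), a call lost without empty-vector sgPOU2F3 replicate 2 or WT sgRosa replicate 1 (adjusted p from 0.0598 to 0.0621). In 16 libraries the difference was −1.84 (adjusted p = 1.73e-05). It was larger in L191A than in WT by 1.81 (limma adjusted p = 0.0422), and leaving out any 1 of 7 of the 12 libraries lost that call (adjusted p from 0.0686 to 0.119). These were all 3 WT sgRosa, all 3 L191A sgPOU2F3 and WT sgPOU2F3 replicate 1, and in 16 libraries the difference was 0.90 (adjusted p = 0.0169). Under sgPOU2F3, JUN was higher in L191A than in WT by 1.34 (limma adjusted p = 0.0257). Without any 1 of the 3 L191A sgPOU2F3 libraries or WT sgPOU2F3 replicate 1 the call was lost (adjusted p from 0.0613 to 0.109), and in 16 libraries the difference was 0.99 (adjusted p = 0.000183).

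JUNB (chromosome 19, 12791496 to 12793315, plus strand), an immediate early gene whose product can restrain c-Jun, was called for the guide effect in empty-vector cells only in 18 libraries. It was at 19.5, 17.0 and 20.0 TPM with sgRosa and at 63.6, 89.8 and 64.6 TPM with sgPOU2F3 there. In WT cells it was at 31.3, 26.6 and 29.3 TPM with sgRosa and at 22.3, 40.2 and 46.3 TPM with sgPOU2F3. In L191A cells it was at 23.8, 32.6 and 33.4 TPM with sgRosa and at 35.9, 41.3 and 32.5 TPM with sgPOU2F3. The 4 groups of cDNA-carrying cells lay between the 2 empty-vector groups in every library. The log2 change was 1.88 in empty-vector cells (SE 0.23, limma adjusted p = 3.11e-05), 0.25 in WT cells (limma adjusted p = 0.41) and 0.29 in L191A cells (limma adjusted p = 0.396, and −0.15 with the 18 libraries scaled). In the 16 libraries WT passed (0.56, limma adjusted p = 0.0151) and L191A did not (0.14, adjusted p = 0.695).

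The JUNB response was smaller than in empty-vector cells, with a difference of −1.63 log2 units in WT (limma adjusted p = 0.0064) and −1.59 in L191A (limma adjusted p = 0.0115). Between L191A and WT it differed by 0.04 (SE 0.33, limma adjusted p = 0.925) in 18 libraries and by −0.42 (SE 0.20, adjusted p = 0.151) in 16, or −0.71 (adjusted p = 0.00407) with those scaled. Under sgPOU2F3, JUNB was lower in L191A than in empty-vector cells (−0.96, limma adjusted p = 0.0261). Leaving out any 1 of 5 of the 6 libraries (all but L191A sgPOU2F3 replicate 2) lost this call (adjusted p from 0.0503 to 0.171), and in 16 libraries the adjusted p was 5.73e-05.

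JUND (chromosome 19, 18279760 to 18281622, minus strand), the broadly and steadily expressed JUN gene whose upstream sequence is printed above, did not follow the others. In empty-vector cells it was at 44.1, 35.2 and 48.9 TPM with sgRosa and at 39.2, 69.8 and 51.4 TPM with sgPOU2F3. WT cells held it at 59.6, 50.7 and 57.2 TPM with sgRosa and at 9.52, 31.5 and 40.5 TPM with sgPOU2F3. L191A cells held it at 24.7, 23.3 and 23.4 TPM with sgRosa and at 33.0, 31.6 and 31.0 TPM with sgPOU2F3. The empty-vector groups overlapped, WT cells were lower with sgPOU2F3 and L191A cells higher, each without overlap. The log2 change was 0.29 in empty-vector cells (SE 0.36, limma adjusted p = 0.649), −1.23 in WT cells (SE 0.36, limma adjusted p = 0.0505) and 0.41 in L191A cells (limma adjusted p = 0.432, and −0.03 with the 18 libraries scaled). The L191A rise passed only with median-ratio scaling of the 16 libraries (limma adjusted p = 0.0468). Over the 16 libraries the WT fall passed (−0.63, limma adjusted p = 0.0222), and with median-ratio scaling of those 16 it did not (−0.36, adjusted p = 0.0518). Without WT sgPOU2F3 replicate 3 it also passed (−1.62, limma adjusted p = 0.0133).

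Several JUND calls changed when single libraries were left out. Its response was larger in L191A than in WT by 1.63 log2 units (limma adjusted p = 0.0488). Leaving out any 1 of 7 of the 12 libraries lost that call (adjusted p from 0.057 to 0.116), namely all 3 WT sgRosa, all 3 L191A sgPOU2F3 and WT sgPOU2F3 replicate 1. In 16 libraries it was 1.06 (adjusted p = 0.0151), and scaling the 18 libraries gave 0.76 (adjusted p = 0.228). Its difference of −1.52 between WT and empty vector (limma adjusted p = 0.0873) passed without WT sgPOU2F3 replicate 3 (−1.91, adjusted p = 0.019) and in 16 libraries (−0.92, adjusted p = 0.0125). Under sgPOU2F3, JUND was lower in WT than in empty-vector cells (−1.13, limma adjusted p = 0.0347) although their ranges overlapped. That call was lost without empty-vector sgPOU2F3 replicates 2 or 3 or WT sgPOU2F3 replicate 1 (adjusted p from 0.0818 to 0.15).

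ATF3 (chromosome 1, 212565334 to 212620777, plus strand) was at 38.7, 35.9 and 31.6 TPM in empty-vector sgRosa libraries and at 51.0, 62.3 and 67.7 TPM with sgPOU2F3. In WT cells it was at 36.6, 37.8 and 36.0 TPM with sgRosa and at 41.5, 56.7 and 47.6 TPM with sgPOU2F3. In L191A cells it was at 12.2, 36.5 and 46.1 TPM with sgRosa and at 32.5, 37.8 and 35.1 TPM with sgPOU2F3. The guides separated in empty-vector and WT cells and overlapped in L191A cells. The log2 change was 0.75 (SE 0.32, limma adjusted p = 0.13), 0.38 (adjusted p = 0.364) and 0.34 (adjusted p = 0.469) in the empty-vector, WT and L191A cells. In the 16 libraries ATF3 rose in empty-vector cells (0.75, limma adjusted p = 9.51e-05) and in WT cells (0.49, adjusted p = 0.0178), and the L191A value was −0.22 (adjusted p = 0.397). The differences of its response from that of empty-vector cells were −0.37 in WT (adjusted p = 0.681) and −0.41 in L191A (adjusted p = 0.519). Over the 16 libraries the latter was −0.97 (limma adjusted p = 0.00155), and L191A less WT was −0.71 (adjusted p = 0.023).

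Across the family, the sgPOU2F3 libraries were then compared between lines. Against empty-vector cells, 5 of 7 members were lower in WT (FOSL1, FOSL2, JUN, JUNB and JUND) and 0 higher, with 13.9% of all genes lower and 6.67% higher. In L191A cells 2 of 7 (FOSL1 and JUNB) were lower than in empty-vector cells and 0 higher, with 2.17% and 1.61% of all genes, and 6 of 7 were lower in the 16 libraries, with 14.6% of all genes lower and 8.26% higher. Between the cDNA lines 3 members (FOSL1, FOSL2 and JUN) were higher in L191A and 0 lower, with 7.77% and 5.72% of all genes. In the 16 libraries ATF3 was also lower in L191A than in WT (−0.55, limma adjusted p = 0.00402), making 3 higher and 1 lower against 18.5% and 18.9% of all genes. These comparisons share libraries with the guide effects above and are not independent of them. For the difference of the guide effect, 4 members were lower in WT than in empty-vector cells and 0 higher (5.27% and 1.71% of all genes), and 6 lower and 0 higher in the 16 libraries (17.7% and 9.0%). For L191A against empty vector 2 were lower and 0 higher (1.8% and 4.28%), and 6 lower and 0 higher in the 16 libraries (7.53% and 15.7%). For L191A against WT 4 were higher and 0 lower (10.7% and 0.971%), 4 higher and 1 lower in the 16 libraries (11.4% and 1.74%), and 3 higher and 2 lower with those scaled (7.91% and 6.59%).

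Summed TPM showed how the mix of mRNAs changed. The FOS family added up to 17.3 ± 0.656 TPM in empty-vector sgRosa libraries and 231.5 ± 51.5 TPM with sgPOU2F3 (SD, n = 3). It went from 28.4 ± 2.72 to 27.9 ± 8.51 TPM in WT and from 24.4 ± 15.2 to 90.6 ± 2.28 TPM in L191A cells. The JUN family added up to 81.6 ± 8.64 and 204.7 ± 47.7 TPM in empty-vector, 109.8 ± 10.8 and 84.4 ± 36.3 TPM in WT, and 73.8 ± 15.3 and 120.3 ± 7.62 TPM in L191A cells. FOS-family mRNA thus went from well below JUN-family mRNA to above it in empty-vector cells only. Their ratio was 0.213 ± 0.0164 and 1.13 ± 0.0709 there, 0.26 ± 0.0283 and 0.351 ± 0.0742 in WT, and 0.309 ± 0.158 and 0.754 ± 0.0307 in L191A cells. Without the outlying libraries the WT sgPOU2F3 mean was 0.316 and the L191A sgRosa mean 0.397 (n = 2 each). In the same 2 groups the JUN family then added up to 104.8 and 82.6 TPM, and the FOS family to 32.7 and 32.9 TPM.

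**Figure D3:**
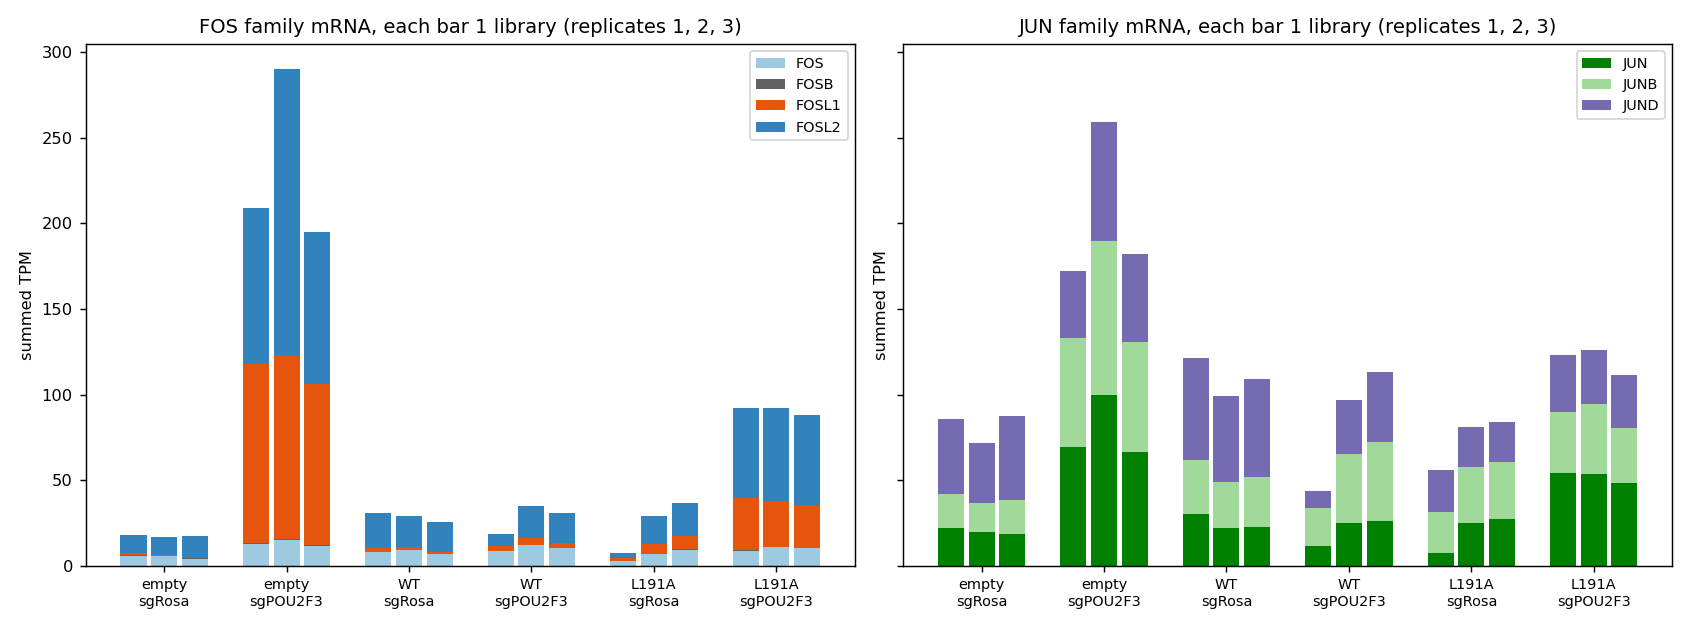
Summed TPM of the FOS family (left) and the JUN family (right) on a shared linear axis from 0, 1 stacked bar per library and 3 bars per group. FOS-family bars reach 195.0 to 290.4 TPM in empty-vector sgPOU2F3 libraries and 88.0 to 92.0 TPM in L191A sgPOU2F3 libraries, and FOSL1 and FOSL2 make up most of them.

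FOSL1 took 4.16% ± 2.54 of FOS-family TPM in empty-vector sgRosa libraries and 45.1% ± 7.25 with sgPOU2F3 (SD, n = 3). Its share went from 5.33% ± 1.63 to 12.6% ± 3.66 in WT and from 22.2% ± 3.46 to 30.3% ± 2.48 in L191A cells. FOS itself held 29.0% ± 4.44 in empty-vector sgRosa and 5.7% ± 0.45 in empty-vector sgPOU2F3 libraries. JUND, the main JUN-family mRNA of empty-vector and WT cells with sgRosa, held 52.1% ± 3.5 of JUN-family TPM in empty-vector sgRosa and 25.9% ± 2.87 in empty-vector sgPOU2F3 libraries. It also held 50.9% ± 1.6 and 30.1% ± 7.26 in WT and 33.5% ± 9.02 and 26.5% ± 1.42 in L191A cells. Without the outlying libraries the JUND share was 34.1% in WT sgPOU2F3 and 28.3% in L191A sgRosa libraries (n = 2 each). The FOSL1 share was then 10.6% and 20.2% in these groups. The exact permutation p was 0.1, the smallest that 3 against 3 allows (0.164 after adjustment), for the share of FOSL1 in all 3 lines, for the ratio in empty-vector and L191A cells and for the share of JUND in empty-vector and WT cells. TPM compares mRNA and not protein.

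The lines also differed under the control guide sgRosa. FOSL1 was higher in L191A than in empty-vector cells by 1.72 log2 units (SE 0.32, limma adjusted p = 0.00185) and than in WT cells by 1.15 (SE 0.32, limma adjusted p = 0.0095). These were 2.18 and 1.61 in the 16 libraries and 2.32 and 1.84 with median-ratio scaling of those 16, called in each. JUND was lower in L191A than in WT (−1.19, limma adjusted p = 0.0134, and −1.22 in the 16 libraries, adjusted p = 5.98e-05), but scaling all 18 libraries gave −0.46 (adjusted p = 0.268). JUNB was higher in L191A than in empty-vector cells by 0.63 (limma adjusted p = 0.0466), a call lost without any 1 of 5 of the 6 libraries (all but L191A sgRosa replicate 1, adjusted p from 0.078 to 0.109), and by 0.78 in the 16 libraries (adjusted p = 0.00072). Thus 2 of 7 members were higher and 0 lower in L191A than in empty-vector cells (4.94% and 31.0% of all genes). These were 4 higher and 1 lower in the 16 libraries (9.29% and 29.9%) and 6 higher and 1 lower with those scaled (20.6% and 19.6%). Between L191A and WT 1 was higher and 1 lower (7.74% and 48.0%), and 4 were higher and 1 lower in the scaled 16 libraries (28.8% and 28.5%). Of WT against empty vector, 0 members were called in 18 libraries (1 at an unadjusted limma p under 0.05, 4.57% of all genes higher, 2.63% lower) and 4 were higher in 16 (20.9% of all genes, with 13.5% lower), namely FOS, FOSL1, FOSL2 and JUNB. The median log2 change of all genes in these L191A contrasts was −0.56 and −0.67 in 18 libraries, −0.20 and −0.31 in 16, and 0.01 and −0.01 after scaling the 16.

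Over the 16 libraries, the log2 levels of FOSL1, FOSL2 and JUN moved closely together. Pearson's r was 0.96 for FOSL1 with FOSL2, 0.97 for FOSL1 with JUN and 0.99 for FOSL2 with JUN, while r with JUND lay between −0.02 and 0.22 for the other 6 members. The points share 6 groups and their guide, so these are descriptions and not tests. By likeness over the same libraries among 3674 genes, the nearest genes to FOSL1 were SERPINB7, a serine protease inhibitor (r = 0.992), PLAU, urokinase (0.991), and CXCL8, the chemokine interleukin-8 (0.989). Nearest to FOSL2 were ITGA3, integrin alpha-3 (0.993), BCAR3 (0.989) and JUN (0.988), and nearest to JUN were FOSL2 (0.988), BICC1 (0.988) and PEA15 (0.983). JUNB lay nearest to the NF-kB pathway genes BCL3 (0.952) and BIRC3 (0.936) and to CPM (0.928). FOS lay nearest to JUNB (0.89), SERPINB8 (0.886) and PSMB9 (0.875). JUND lay nearest to genes of another pattern, PACS1 (0.955), MICALL2 (0.954) and the kinase gene MAPKAPK2 (0.953). PACS1 had means of 14.9 and 20.8 TPM in empty-vector, 19.8 and 8.8 TPM in WT, and 6.03 and 12.5 TPM in L191A cells with sgRosa and sgPOU2F3.

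Well-known AP-1 targets rose with the family in empty-vector cells. Of 14 tested out of 19 listed, 11 rose and 1 (PTGS2, −1.90, limma adjusted p = 0.000123) fell in empty-vector cells, 7 rose and 0 fell in WT cells, and 9 rose and 0 fell in L191A cells. Of all genes tested 7.94% rose and 9.5% fell, 1.56% and 5.26%, and 5.42% and 0.566% in the 3 lines. Over the 16 libraries these counts were 13 and 1, 7 and 1, and 10 and 0, against 19.1% and 32.7%, 5.69% and 30.4%, and 7.35% and 3.33% of all genes. The medians of the list were 2.97, 0.59 and 1.18 log2 units, beside −0.13, −0.42 and 0.33 over all genes. The response was smaller than in empty-vector cells for 11 of the 14 in WT (5.27% of all genes) and 10 of the 14 in L191A (1.8%).

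PLAU, a protease of matrix breakdown, was at 0.418, 0.789 and 0.21 TPM with sgRosa and at 63.5, 67.8 and 64.7 TPM with sgPOU2F3 in empty-vector cells. With sgPOU2F3 it was at 1.94, 2.83 and 2.89 TPM in WT and at 22.1, 21.1 and 20.6 TPM in L191A cells. Its log2 change was 5.51 (limma adjusted p = 8.02e-11), 1.17 (adjusted p = 0.009) and 2.61 (adjusted p = 1.15e-06) in the 3 lines, the order seen for FOSL1. IL6, an inflammatory cytokine, did not keep that order. It was at 20.9, 22.0 and 21.2 TPM in empty-vector sgPOU2F3 libraries but at 1.47, 1.91 and 1.56 TPM in L191A sgPOU2F3 libraries, and its log2 change was 4.19 (limma adjusted p = 2.53e-10), 0.42 (adjusted p = 0.116) and 0.34 (adjusted p = 0.273).

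CXCL8 rose in each line, by 4.07 (limma adjusted p = 2.46e-10), 1.21 (adjusted p = 0.0015) and 1.38 (adjusted p = 9.38e-05). MMP1, the interstitial collagenase, chosen after its values were seen, is given by level and not by guide response. Under both guides its level was higher in L191A than in empty-vector cells. With sgRosa it was already at 6.02, 8.11 and 11.2 TPM in L191A cells, against 0.523, 0.109 and 0.344 TPM in empty-vector cells. With sgPOU2F3 it was at 9.57, 8.44 and 8.11 TPM in empty-vector and at 27.6, 25.0 and 22.6 TPM in L191A libraries. That was higher in L191A by 1.42 log2 units (SE 0.19, limma adjusted p = 0.000154). FOSL1 and JUNB were lower in L191A in that same comparison. Of the 14 AP-1 targets tested, 2 were higher and 6 lower there, beside 1.61% and 2.17% of all genes. In the 16 libraries 3 were higher and 6 lower, beside 8.26% and 14.6%.

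**Figure D4:**
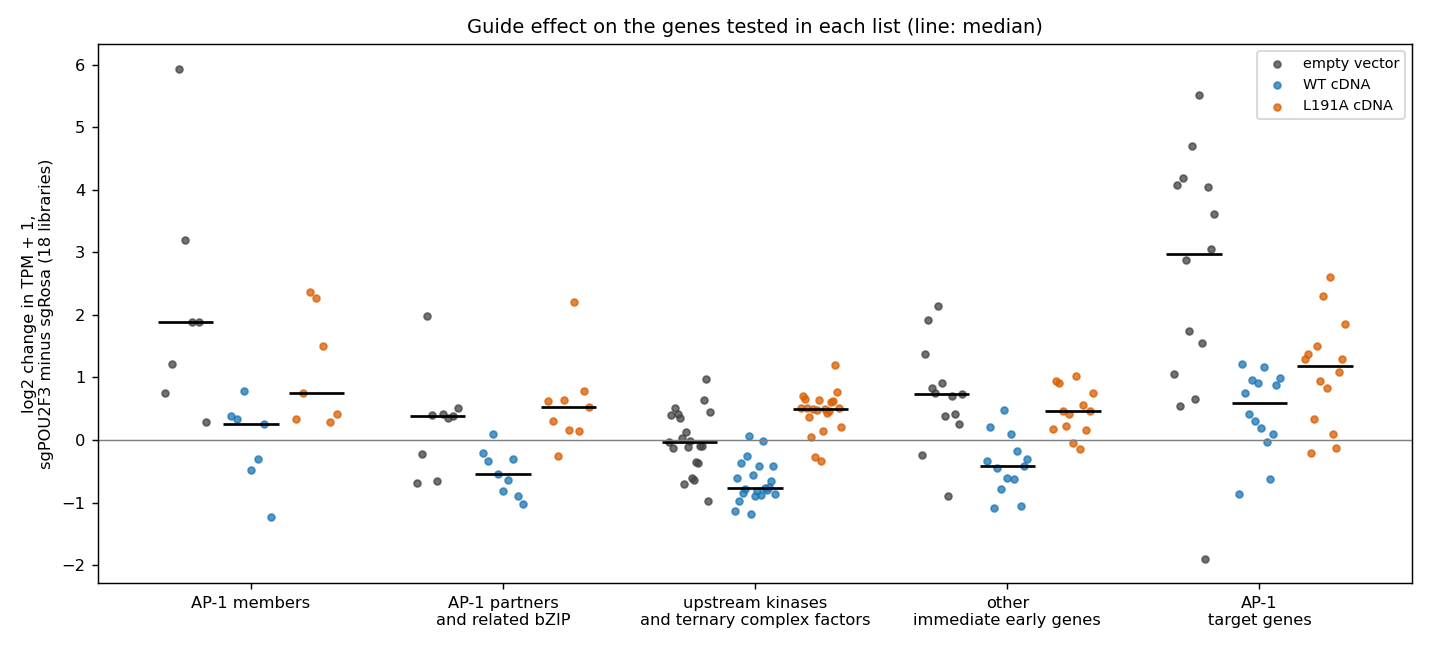
Log2 change of TPM + 1 (sgPOU2F3 minus sgRosa, 18 libraries, y axis) for each gene tested in 5 lists, in the empty-vector, WT and L191A lines, with a line at the median. The AP-1 target genes have medians of 2.97, 0.59 and 1.18, and the upstream kinases and ternary complex factors have medians of −0.03, −0.76 and 0.50.

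Genes that drive or accompany AP-1 were counted in the same way, and read against the same shares of all genes. For those shares in 18 libraries, 7.94% rose and 9.5% fell in empty-vector, 1.56% and 5.26% in WT and 5.42% and 0.566% in L191A cells. Of 13 other immediate early genes tested of 17 listed, 4 rose and 1 fell in empty-vector cells, 0 changed in WT and 1 rose in L191A cells. In the 16 libraries 10 rose and 1 fell, 1 rose and 3 fell, and 2 rose and 1 fell, beside 19.1% and 32.7%, 5.69% and 30.4%, and 7.35% and 3.33% of all genes. The gene that fell in empty-vector cells was KLF4 (−0.90, limma adjusted p = 0.0368), named after its values were seen. IER3, a survival gene of the stress response, was at 25.2, 26.7 and 24.9 TPM with sgRosa and at 122.8, 121.2 and 108.4 TPM with sgPOU2F3 in empty-vector cells (log2 change 2.15, limma adjusted p = 2.78e-08). EGR1, a zinc finger factor induced with FOS, rose in empty-vector cells (1.92, limma adjusted p = 0.00745), but its highest levels were in WT sgRosa libraries, at 79.6, 70.5 and 62.6 TPM. DUSP1, a phosphatase that turns off stress kinases, rose there too (1.37, limma adjusted p = 0.00032) and in L191A cells (0.95, adjusted p = 0.0123). IER5 rose in empty-vector cells (0.92, limma adjusted p = 0.0202), a call lost without any 1 of 5 of the 6 libraries (adjusted p from 0.0528 to 0.0794), though adjusted p was 3.83e-05 in the 16 libraries.

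Of 21 upstream kinases and ternary complex factors tested of 23, 0 rose and 1 fell in empty-vector cells, 0 rose and 2 fell in WT (5.26% of all genes fell) and 0 changed in L191A cells. Over the 16 libraries 7 rose and 5 fell in empty-vector cells (19.1% and 32.7% of all genes), 0 rose and 12 fell in WT (5.69% and 30.4%), and 1 rose and 1 fell in L191A cells (7.35% and 3.33%). MAP2K6, a kinase of the p38 branch, fell in empty-vector cells by 0.70 on the log2 scale (limma adjusted p = 0.00349). The 2 that fell in WT cells, also named after their values were seen, were MAPK12 (−0.90, limma adjusted p = 0.0336) and MAP2K2 (−0.85, adjusted p = 0.046). Of 9 related leucine zipper factors tested of 12, 1 rose in empty-vector cells (7.94% of all genes) and 1 in L191A cells (5.42%). In these 18 libraries 0 fell in any line. In the 16 libraries 4 rose and 2 fell in empty-vector cells, beside 19.1% and 32.7% of all genes. There 0 rose and 2 fell in WT cells (5.69% and 30.4%), and 1 rose and 0 fell in L191A cells (7.35% and 3.33%). BATF3, a partner of JUN proteins, was at 6.82, 4.22 and 7.05 TPM with sgRosa and at 26.4, 28.4 and 24.2 TPM with sgPOU2F3 in empty-vector cells (1.98, limma adjusted p = 9.31e-06). BATF was listed at 0 in all 18 libraries.

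Markers of other cell types were read beside these changes. Summed over 6 fibroblast markers, TPM lay between 8.7 and 10.8 in empty-vector sgRosa libraries, between 13.3 and 20.5 with sgPOU2F3, and between 7.9 and 23.9 in the cDNA lines. Of the 5 tested, COL3A1 and COL1A1 rose and PDGFRA and DCN fell in empty-vector cells in 18 libraries (7.94% and 9.5% of all genes). In WT cells 0 rose and 2 fell (1.56% and 5.26%), and in L191A cells 1 rose and 1 fell (5.42% and 0.566%). Summed over 6 neuroendocrine markers, TPM lay between 1.65 and 8.66 in all libraries, with CHGB under 0.5 TPM throughout. Single markers moved apart, named after their values were seen. NEUROD1 was at 2.05, 1.09 and 1.46 TPM in L191A sgPOU2F3 libraries and at or under 0.158 TPM elsewhere. CHGA was at 0.989, 0.987 and 0.983 TPM there and at or under 0.687 TPM elsewhere. INSM1 went the other way, at 2.71, 4.85 and 5.04 TPM in L191A sgRosa and 2.70, 2.49 and 2.22 TPM in L191A sgPOU2F3 libraries. Summed over 5 lymphoid and myeloid markers, TPM lay between 1.85 and 10.5, with CD3E under 0.5 TPM throughout. The summed tuft markers, with the targeted POU2F3 among them, lay between 3420.8 and 4265.9 TPM in empty-vector sgRosa libraries. With sgPOU2F3 in empty-vector cells they lay between 1012.8 and 1257.7 TPM. The part of any of these in the AP-1 changes was not tested.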

How the data were processed

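Poly(A) RNA of 18 libraries was measured. Per the submitters' processing notes the authors used kallisto and hg38, and the deposited values are TPM per gene. The kallisto version, transcript set and strand setting were not given in the sources used here. TPM keeps no read depth, so no counting interval is given and precision rests on the 3 libraries per group. Of 19875 deposited entries, 123 were left out, 27 that a spreadsheet had turned into dates and 96 that were fragments (together 1.48% to 2.17% of TPM), leaving 19752.

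Groups came from the sample labels. Limma 3.58.1 (R 4.3.3) with a variance trend was fitted to log2(TPM + 1) of the 13073 genes whose mean reached 1 TPM, with 1 term per group and 12 contrasts, two-sided, adjusted by Benjamini-Hochberg over all genes tested with 0.05 as the threshold. The fit was tested on simulated data. FOSB, shares and ratios were compared by exact permutation. Alternatives were pseudocounts of 0.1 and 5, no filter or a mean of 5 TPM, median-ratio scaling, quantile normalization, a replicate block, no variance trend, only the groups compared, 16 libraries, and each library left out. Scaling of the 16 libraries was added after seeing the data.

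The AP-1 members and the gene lists were chosen with earlier results of these data known. Besides members and POU2F3, the text names up to 4 genes per list with the smallest p for the guide in empty-vector cells, and for each member whose 6 group medians span at least 1 log2 unit the 3 genes with the highest Pearson r over 16 libraries. CD44 and 8 of 9 heat shock genes were not matched by symbol; the ninth, HSP90AA1, gave a log2 change of 0.48 in empty-vector cells (limma adjusted p = 0.00711). Some genes of the lists are not reported here by name.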

Additional observations from a re-analysis of the deposited data

Results flagged for a closer look

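Among the 7 members tested, the guide effect differed between lines for 10 pairs of member and comparison, by the interaction test in limma over 18 libraries. Between WT and empty-vector cells it differed by −5.15 log2 units for FOSL1 (adjusted p = 3.29e-06), −3.68 for FOSL2 (0.00361), −2.19 for JUN (0.0187) and −1.63 for JUNB (0.0064). The JUN call was lost without either of 2 libraries (limma adjusted p from 0.0598 to 0.0621). Between L191A and empty-vector cells it differed by −3.58 for FOSL1 (limma adjusted p = 0.000345) and −1.59 for JUNB (0.0115). Between L191A and WT cells it differed by 1.57 for FOSL1 (limma adjusted p = 0.0412), 2.76 for FOSL2 (0.0256), 1.81 for JUN (0.0422) and 1.63 for JUND (0.0488). Each of these 4 calls was lost on leaving out single libraries. Of all genes tested, 5.27% were lower and 1.71% higher for WT less empty vector. These shares were 1.8% and 4.28% for L191A less empty vector, and 0.971% and 10.7% for L191A less WT. In the last comparison the median over all genes tested was 0.79 log2 units.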

How the results depend on the processing

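In empty-vector cells the guide effect of FOSL1, FOSL2, JUN and JUNB was called in all 17 alternatives, and that of FOS in 16. The number of the 7 members called varied elsewhere, and so did the share of all genes called in either direction, whose lowest and highest values over these settings (single libraries left out aside) are given in brackets. For the guide in WT cells (1.69% to 36.1%, and 6.82% with 18 libraries as deposited) it was 0, and 1 with a pseudocount of 5, 4 with median-ratio scaling, 5 with quantile normalization, 1 with the replicate block, 4 in 16 libraries, 4 with those scaled, and 0 to 1 leaving out 1 library. For the guide in L191A cells (1.1% to 15.3%) it was 3, and 4 in the scaled 16 libraries and 0 when only the groups compared were fitted. Leaving out 1 library lost the JUN call or gained a call of FOS, depending on the library. For L191A less empty vector under sgPOU2F3 (2.55% to 30.6%) it was 2, and 4 with either normalization, 6 in 16 libraries, scaled or not, 6 with only the groups compared, and 1 to 2 leaving out 1 library. For L191A less WT under sgPOU2F3 (10.8% to 44.4%) it was 3, and 4 in 16 libraries, scaled or not, and 1 to 3 leaving out 1 library. Under sgRosa, WT less empty vector (5.22% to 42.3%) gave 0, and 1 with quantile normalization, 4 in 16 libraries, 3 with those scaled and 3 with only the groups compared. L191A less empty vector (1.41% to 40.1%) gave 2, and 1 with no filter, 4 with quantile normalization, 5 in 16 libraries, 7 with those scaled, 0 with only the groups compared and 1 to 3 leaving out 1 library. L191A less WT (12.9% to 58.7%) gave 2, and 1 with only the groups compared, 5 in the scaled 16 libraries and 2 to 5 leaving out 1 library. The difference of the guide effect between L191A and empty vector (2.44% to 29.0%) gave 2, and 6 with either normalization and in 16 libraries, scaled or not, and 2 to 5 leaving out 1 library. That between L191A and WT (2.29% to 30.8%) gave 4, and 1 with a pseudocount of 0.1, with no filter or with a mean of 5 TPM, 0 with only the groups compared and 0 to 4 leaving out 1 library. In 16 libraries it gave 4 higher and 1 lower, and 3 higher and 2 lower with those scaled.

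Some log2 changes that were not called turned sign, given as median-ratio scaling, quantile normalization, 16 libraries and those scaled, where each did. For the guide in WT cells JUN went from −0.30 to 0.13, 0.20, 0.06 and 0.32 (−0.49 to 0.06 leaving out 1 library), and FOSL2 from −0.48 to 0.03 with quantile normalization and 0.20 in the scaled 16. For the guide in L191A cells ATF3 went from 0.34 to −0.09, −0.08, −0.22 and −0.25 (−0.22 to 0.70), JUNB from 0.29 to −0.15 and −0.06 with the normalizations of 18, and JUND from 0.41 to −0.03 with median-ratio scaling. For L191A less WT, the difference of the guide effect went from 0.42 to −0.34, −0.67, −0.14 and −0.41 for FOS (−0.02 to 0.76), from 0.04 to −0.84, −0.79, −0.42 and −0.71 for JUNB (−0.27 to 0.24), and, leaving out 1 library, lay between −0.60 and 0.32 for ATF3 (−0.04). For L191A less empty vector that of JUND went from 0.11 to −0.46, −0.30 and, in the scaled 16, −0.03 (−0.08 to 0.32). The cause was not tested. Deviations of same-numbered libraries had r over 0.1 in 16 of 45 pairs (from −0.577 to 0.594). All 3 numbers passed 0.1 for WT sgPOU2F3 with L191A sgRosa (0.421, 0.422 and 0.228), and for none of the pairs of groups compared directly, so the numbers were not taken to pair libraries. Leaving out a library leaves 2 in its group, whose spread is pooled with the other groups. Depth is unknown, so the limit it sets on FOSB and on FOSL1 in control cells could not be given.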
